A study of Mus musculus with 8 samples.

Results

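Growth factors released by immune cells were examined in CD45+ cells sorted from mouse mammary tumors. The 9 genes were Igf1, Pdgfa, Pdgfb, Pdgfc, Tgfb1, Hbegf, Areg, Osm and Gdf15, taken by symbol from the 32285 genes of the count matrices. Their transcripts were counted per mouse in macrophages, monocytes, dendritic cells and lymphoid cells, and compared between tumors of 3 cell lines.

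These genes code for ligands of different receptor families. Igf1 signals through the insulin-like growth factor receptor and is a classical product of tissue macrophages that take up dying cells. Pdgfa, Pdgfb and Pdgfc encode chains of platelet-derived growth factor, which acts on fibroblasts and pericytes, and Tgfb1 is made as a latent protein that integrins and proteases release. Hbegf and Areg are membrane-bound ligands of the epidermal growth factor receptor that ADAM17 sheds, and Areg is known from regulatory T cells in tissue repair. Osm is a cytokine of the interleukin-6 family that myeloid cells secrete. Gdf15 is a distant member of the transforming growth factor family that rises in stressed cells.

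E0771 is a C57BL/6 mammary carcinoma line, and the mice of the study were female. E0771-Res1 and E0771-Res2 are lines established from E0771 tumors that had relapsed after paclitaxel and anti-PD-1, so each stands for the derivation of 1 line. The tumors grew in the mammary gland and were taken on day 18, 1 per mouse, with 2 mice for parental E0771 (mice 1 and 3), 3 for E0771-Res1 (mice 4 to 6) and 3 for E0771-Res2 (mice 7 to 9). The labels name no treatment of these mice and no age, and a further parental mouse was not analysed here. Cells of all mice had been pooled with multiplexing tags before the 3′ library was made.

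After cells with fewer than 500 or more than 6000 genes or with a mitochondrial share of 10% or more had been left out, 10605 of 11430 cells were kept, between 604 and 2020 per mouse, and no barcode was shared between mice. Each kept cell went into 1 class by marker transcripts: 2325 macrophages with 10 or more C1qa UMIs, 3837 monocytes with Ly6c2 and Lyz2, 503 dendritic cells with Flt3, Cd209a, Xcr1, Clec9a or Ccr7, and 809 lymphoid cells with T, NK or B cell genes. The other 3131 cells met no gate. UMIs are unique molecular identifiers, which count captured transcripts. A CPM value is a gene's UMIs in the summed cells of 1 mouse and class, divided by all UMIs there and put on the counts-per-million scale, with mitochondrial, ribosomal protein and Gm genes left out. Marker genes that the gates did not use were checked: C1qb was 5463 to 6981 CPM in macrophages and 286 to 589.6 CPM in monocytes, Adgre1 was 298 to 434 and 121 to 163 CPM, and the summed level of Trbc2, Il2rb, Lck, Nkg7 and Cd2 was 3815 to 5961 CPM in lymphoid cells and 39.1 to 78.0 CPM in macrophages. A set of 8 tumor and stromal genes summed to at most 20.7 CPM in macrophages and 15.4 CPM in monocytes. It reached 149 CPM in dendritic cells and 34.4 CPM in lymphoid cells, both in E0771-Res2. The median macrophage held 10119 to 11481 UMIs in the E0771 and E0771-Res1 mice and 6998.5 to 8869 in the E0771-Res2 mice. In mouse 3, 36.4% of cells had most of their tag UMIs from 1 tag, against 76.6% to 99.7% in the other mice.

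Differences were tested on the summed counts with edgeR's quasi-likelihood test, the p values were adjusted over all genes tested by the Benjamini-Hochberg method, and a gene was called at an adjusted p under 0.05. Because these tests used counts summed per class, they cannot tell apart fewer transcripts per cell and fewer cells that make them. For Igf1, shares of cells with a transcript are given further on. Levels are not compared between genes.

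RefSeq promoters (GRCm38.p6, 250 bases before to 50 after a start) were searched for 6 of the 9 genes, 8 promoters in all. Hbegf was left out of this search, and no promoter was found for Pdgfb and Osm. They are shown for Areg, Igf1 and Gdf15, the 3 of these 6 genes with a match to 1 of 3 searched motifs, with capitals on the match. The motifs were the cyclic AMP response element TGACGTCA, the AP-1-like pattern TGANTCA, where N is any base, and the E-box CACGTG, searched on both strands.
Areg, chr5:91139349-91139648, plus strand: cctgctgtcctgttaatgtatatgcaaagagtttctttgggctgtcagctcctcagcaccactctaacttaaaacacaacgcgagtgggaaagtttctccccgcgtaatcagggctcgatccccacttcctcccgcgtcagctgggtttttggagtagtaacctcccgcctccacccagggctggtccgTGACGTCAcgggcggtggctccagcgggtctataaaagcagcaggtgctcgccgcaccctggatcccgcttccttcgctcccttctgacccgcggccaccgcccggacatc
Igf1, chr10:87860861-87861160, plus strand: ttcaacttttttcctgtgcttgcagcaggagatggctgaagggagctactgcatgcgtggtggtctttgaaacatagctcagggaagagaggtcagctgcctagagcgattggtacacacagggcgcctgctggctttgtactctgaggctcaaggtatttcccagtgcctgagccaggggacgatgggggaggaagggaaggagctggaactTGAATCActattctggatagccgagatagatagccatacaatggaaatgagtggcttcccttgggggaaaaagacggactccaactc
Gdf15, chr8:70632046-70632345, minus strand: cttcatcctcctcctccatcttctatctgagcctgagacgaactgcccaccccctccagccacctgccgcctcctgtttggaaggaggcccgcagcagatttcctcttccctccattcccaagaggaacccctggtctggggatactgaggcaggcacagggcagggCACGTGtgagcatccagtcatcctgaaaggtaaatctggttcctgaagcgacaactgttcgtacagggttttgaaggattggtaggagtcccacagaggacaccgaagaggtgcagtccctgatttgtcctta
The Areg promoter held TGACGTCA with its first base at position -61 from the start, which 588 of 32851 promoters of this length (1.79%) also held. The Igf1 promoter held a match to TGANTCA at position -37, as did 7.81% of promoters. Its letters were TGAATCA, with A at the open central base, so AP-1-like names the searched pattern only. The Gdf15 promoter shown held an E-box at position -83, as did 7.15%. The other Gdf15 promoter, at the annotated start of the gene, had no match. The Gdf15 and Igf1 promoters shown lie inside the annotated genes (chr8:70629393-70632456, minus strand, and chr10:87858265-87937042, plus strand). The Pdgfa, Pdgfc and Tgfb1 promoters had no match to these letters. A match is a description of letters and not of a bound factor.

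Calls between these classes were common: 51.4% of all 8340 genes for macrophages against monocytes, 47.5% for dendritic cells and 67.1% for lymphoid cells. Igf1, Pdgfa and Pdgfb were higher in macrophages than in monocytes, Osm, Tgfb1 and Hbegf were higher in monocytes, and Areg was highest in lymphoid cells. Gdf15 did not differ detectably between macrophages and monocytes but was lower in dendritic cells than in their mean, and Pdgfc was not tested. In the test of macrophages against monocytes with mouse as a block, 3 of 8 genes tested were higher and 3 lower, where 51.4% of all 8340 genes were called.

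Pdgfb lay at 50.5 and 60.0 CPM in the macrophages of the E0771 mice, at 80.3, 96.8 and 75.3 CPM in E0771-Res1 and at 77.6, 66.9 and 65.9 CPM in E0771-Res2. In monocytes its level was between 10.5 and 25.7 CPM, so that macrophages were higher in 8 of 8 mice and the classes did not overlap. The log2 difference was 1.76 (SE 0.12, adjusted p = 1.06e-15). Macrophages were on average 20.7% of cells and held 49.7% of the Pdgfb UMIs.

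Pdgfa was sparser, with 969 UMIs in all kept cells. Its level in macrophages was 19.3 and 5.46 CPM in E0771, 32.9, 19.9 and 39.5 CPM in E0771-Res1 and 15.0, 24.5 and 18.1 CPM in E0771-Res2. In monocytes it was 2.08 and 3.22, then 3.31, 2.22 and 6.86, then 14.2, 5.51 and 11.7 CPM in the same order. Macrophages were above monocytes in 8 of 8 mice, by a log2 difference of 1.62 (SE 0.30, adjusted p = 7.11e-05).

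Pdgfc, the other chain, was near the limit of detection. It had 106 UMIs in all kept cells, 73 of them in macrophages (2 to 29 per mouse), 12 in monocytes, 2 in lymphoid cells and 0 in dendritic cells. Too few UMIs per mouse were present for a test in any comparison.

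Igf1 in macrophages was 0.77 log2 units above monocytes (SE 0.13, adjusted p = 1.83e-05), in 8 of 8 mice. Without mouse as a block the spread between lines enters the error, and the adjusted p was 0.156. Dendritic cells held less Igf1 than the mean of monocytes and macrophages (log2 difference -1.96, SE 0.24, adjusted p = 3.82e-08).

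Osm was highest in monocytes among the gated classes: 56.9% of its UMIs were in monocytes, which were 37.9% of cells. Macrophages held 17.2% of Osm UMIs and cells outside the gates 20.3%. Monocytes held 323 and 273 CPM in E0771, 353, 367 and 321 CPM in E0771-Res1 and 248, 280.1 and 207 CPM in E0771-Res2. Macrophages held 178 and 136, then 109.6, 135 and 176, then 85.4, 89.7 and 83.0 CPM. Every monocyte value lay above every macrophage value, and the log2 difference of macrophages from monocytes was -1.43 (SE 0.14, adjusted p = 5.75e-09).

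Tgfb1 was found in all classes. The macrophage level was between 324 and 419 CPM and the monocyte level between 342 and 449 CPM, and macrophages were lower in 7 of 8 mice (log2 difference -0.28, SE 0.07, adjusted p = 0.000511). NK cells reached 372 to 577 CPM and Ccr7+ dendritic cells 87.2 to 279 CPM. Dendritic cells were below monocytes and macrophages in 8 of 8 mice (log2 difference -0.85, SE 0.07, adjusted p = 2.63e-13), and among dendritic cells those with Ccr7 were below the other dendritic cells in 8 of 8 mice.

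Hbegf was low in all classes, and 697 UMIs were counted. In macrophages its level was 9.89 and 7.64 CPM in E0771, 5.68, 41.8 and 3.76 CPM in E0771-Res1 and 3.49, 8.36 and 5.58 CPM in E0771-Res2, where the high value of mouse 5 came from 3 cells with 44 UMIs. Monocytes held 5.90 to 28.3 CPM. The test gave a log2 difference of macrophages from monocytes of -0.82 (SE 0.29, adjusted p = 0.018), although macrophages were lower in 5 mice and higher in 3. With the DESeq2 test the adjusted p was 0.0645, and without mouse 6, mouse 7 or mouse 9 it was 0.0616, 0.0638 and 0.0546.

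Gdf15 and Areg did not differ detectably between macrophages and monocytes (log2 differences -0.23, 95% interval -0.65 to 0.19, and -0.10, interval -0.86 to 0.65). Both classes of myeloid cells held Gdf15, with 28.9% of its UMIs in macrophages and 40.8% in monocytes. Against these, dendritic cells were lower in Gdf15 by a log2 difference of -1.90 (SE 0.30, adjusted p = 1.04e-05), and so were lymphoid cells against the mean of the 3 myeloid classes (-1.04, SE 0.26, adjusted p = 0.00143). In all, 5 of 8 genes were lower in dendritic cells, where 47.5% of all genes were called, and 1 was higher and 4 lower in lymphoid cells, where 67.1% were called. The lymphoid values were Osm -1.70 (SE 0.17, adjusted p = 6.01e-09), Igf1 -1.01 (SE 0.21, adjusted p = 0.000132) and Tgfb1 -0.26 (SE 0.06, adjusted p = 0.000455) besides Gdf15. With cells thinned to 3000 UMIs the adjusted p was 0.232 for Tgfb1 and 0.062 for Gdf15. Without mouse as a block it was 0.14 for Igf1. Against dendritic cells alone, lymphoid cells were higher in 8 of 8 mice for Tgfb1, 5 for Gdf15, 3 for Igf1 and 2 for Osm. Areg was higher in lymphoid cells, as given next.

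**Figure D1:**
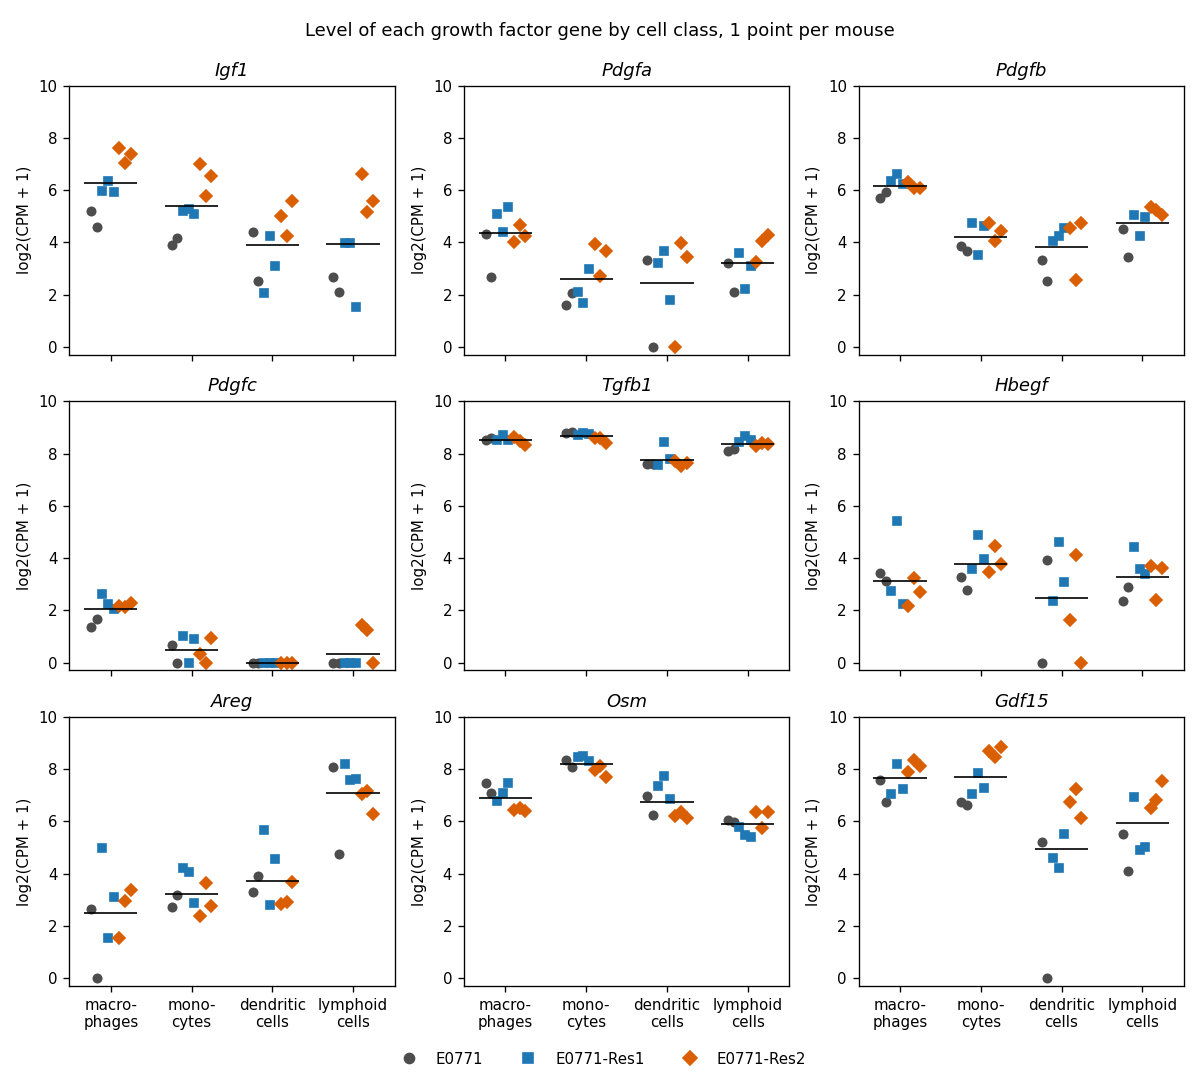
Level of each of the 9 genes in 4 cell classes as log2(CPM + 1) on the vertical axis, 1 point per mouse, colored by tumor line, with a bar at the mean of the 8 mice. Pdgfb is above the monocyte points in every macrophage point, Osm the reverse, and the Areg points of lymphoid cells stand above the other classes in every mouse.

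Areg was highest in lymphoid cells among the 4 gated classes. Lymphoid cells were 8.00% of kept cells on average and held 40.4% of Areg UMIs, and cells outside the gates held 37.1%. Their level was 273 and 26.1 CPM in E0771, 292, 193 and 195 CPM in E0771-Res1 and 132, 142 and 76.5 CPM in E0771-Res2, against 4.23 to 17.6 CPM in monocytes. Lymphoid cells were above each of the other gated classes in 8 of 8 mice. In mouse 3, however, they held 7.62% of Areg UMIs, and cells outside the gates held 75.2% at 111 CPM. The log2 difference from the mean of the myeloid classes was 3.61 (SE 0.24, adjusted p = 6.46e-12).

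Within the lymphoid class, T cells with a Foxp3 transcript, the factor of regulatory T cells, had the highest mean level of Areg. It was 495 CPM in E0771 mouse 1, 558, 354 and 774 CPM in E0771-Res1 and 459, 316 and 108 CPM in E0771-Res2. The mean was 438 CPM ± 209 (SD, n = 7), and parental mouse 3 was left out with 8 such cells. T cells without Foxp3 or CD8 genes reached 223 CPM ± 195 (SD, n = 8), CD8+ T cells 91.5 CPM ± 116 (SD, n = 7) and NK cells 5.29 CPM ± 7.66 (SD, n = 8). Foxp3+ cells were above CD8+ T cells in 6 of 6 mice and above NK cells in 7 of 7. They were above the remaining T cells in 5 of 7 mice, so that these neighbors overlapped.

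Few cells carried most Areg transcripts. Of the 200 UMIs in the lymphoid cells of mouse 1, 149 were in 5 cells, and of the 340 in mouse 4, 238 were. Over the 8 mice the 5 highest cells held 55.4% to 100% of lymphoid Areg UMIs. In macrophages of mouse 4, 5 of 579 cells held 159 of 172 Areg UMIs, and this mouse alone stood at 30.6 CPM while the others lay between 0 and 9.42 CPM. No doublet caller was run, and the part of doublets in these cells was not tested.

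**Figure D2:**
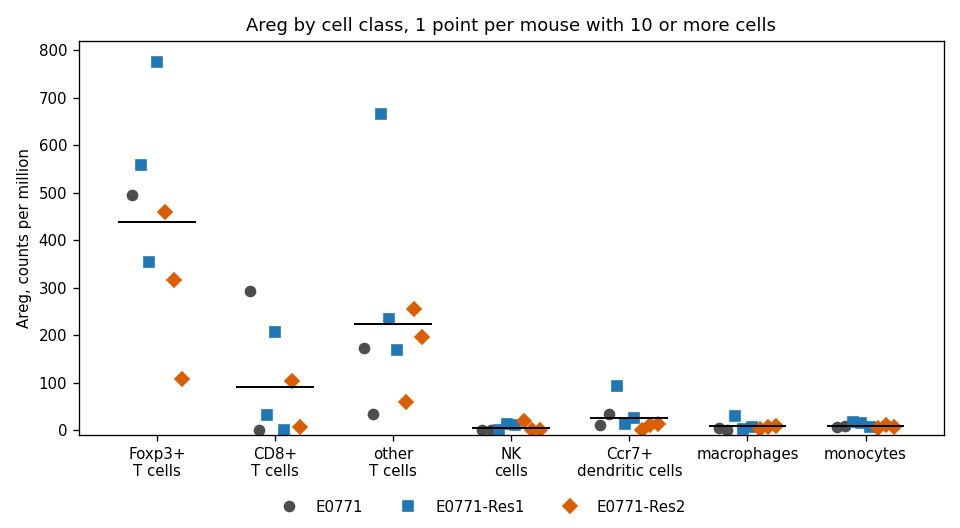
Areg level in CPM on the vertical axis by cell class, 1 point per mouse with 10 or more cells of the class, colored by tumor line, with a bar at the mean. Foxp3+ T cells range from 108 to 774 CPM, while NK cells, macrophages and monocytes stay at or below 30.6 CPM.

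The design asks how the immune cells of tumors from the resistant lines differ from those of the parental line. Igf1 was the gene with the clearest order. In macrophages it was 35.4 and 22.9 CPM in the E0771 mice, 61.3, 81.6 and 60.2 CPM in E0771-Res1 and 195, 131 and 164 CPM in E0771-Res2. The lines did not overlap. Parental macrophages averaged 29.2 CPM ± 8.82 (SD, n = 2), those of E0771-Res1 67.7 ± 12.1 (SD, n = 3) and those of E0771-Res2 163 ± 32.1 (SD, n = 3).

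In E0771-Res2 macrophages 2 of 8 genes tested were called against E0771, Igf1 higher and Osm lower, where 2.35% of 9117 genes were called. Igf1 was higher by 2.41 log2 units (SE 0.22, adjusted p = 7.6e-05). Against E0771-Res1 only Igf1 of the 8 genes was called, where 3.15% of all genes were, and its log2 difference was 1.34 (SE 0.16, adjusted p = 0.000366). In E0771-Res1 against E0771, 0 of 8 genes and 0.537% of all genes were called. By edgeR 3 of the 8 and 1068 of all 9117 genes had an unadjusted p under 0.05. DESeq2 called 1 of the 8, and the alternative settings, DESeq2 among them, called 12 to 314 of all genes. Igf1 was nearest, with a log2 difference of 1.07 (SE 0.24, adjusted p = 0.0626).

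Monocytes held less Igf1 in the same order. Their levels were 13.9 and 17.2 CPM in E0771, 35.7, 38.3 and 33.0 CPM in E0771-Res1 and 127, 54.0 and 92.9 CPM in E0771-Res2, again without overlap. In monocytes of E0771-Res2, 3 of 8 genes were higher than in E0771, Igf1, Pdgfa and Gdf15, and none lower, where 5.56% of 9459 genes were called. Igf1 was higher by 2.60 log2 units (SE 0.43, adjusted p = 0.0209). The adjusted p was 0.227 without mouse 1, 0.131 without mouse 3, 0.0512 without mouse 4, 0.0561 without mouse 6 and 0.0692 without mouse 9. Against E0771-Res1 the Igf1 difference of 1.37 (SE 0.32, adjusted p = 0.0817) was not called.

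The share of cells with Igf1 moved with its level. When each macrophage was thinned to 3000 UMIs, 8.29% and 6.06% of E0771 macrophages had an Igf1 UMI, against 11.8%, 15.2% and 8.82% with E0771-Res1, and 27.5%, 25.6% and 21.4% with E0771-Res2. Without thinning, in the same cells, the shares ran from 9.09% to 37.6%. The share of E0771-Res2 macrophages was above that of the other lines in each mouse.

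The Igf1 level of lymphoid cells is given beside that of myeloid cells. It was 5.45 and 3.26 CPM in E0771, 14.6, 14.6 and 1.87 CPM in E0771-Res1 and 96.3, 35.2 and 46.7 CPM in E0771-Res2. The lines differed (1 of 6 genes, 1.89% of all genes called, adjusted p = 0.00842 for any difference), and the adjusted p was 0.0847 without mouse 1 and 0.0741 with C1qa gated per 10000 UMIs. In the same cells the macrophage gene C1qb was 176 to 237 CPM in E0771 and E0771-Res1 and 378 to 543 CPM in E0771-Res2. Thinned lymphoid cells had an Igf1 UMI in 0% to 2.86% of cells in E0771 and E0771-Res1 and in 7.04% to 14.7% in E0771-Res2. Per 1000 Apoe UMIs, Igf1 counted 3.77 to 25.3 in lymphoid cells of the first pair of lines and 29.7 to 71.0 in E0771-Res2. The same ratio was 9.40 to 21.8 and 26.9 to 67.9 in monocytes, and 4.47 to 10.1 and 15.6 to 22.3 in macrophages. Within mice the lymphoid ratio was above that of macrophages in all but mouse 6 of E0771-Res1 (3.77 against 10.1), and its range overlapped that of monocytes. In CPM, lymphoid Igf1 was below macrophages and below monocytes in 8 of 8 mice. The source of lymphoid Igf1 and its part in the monocyte level were not tested.

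Dendritic cells held 3.14 to 20.1 CPM of Igf1 in E0771 and E0771-Res1 and 30.9, 18.1 and 47.2 CPM in E0771-Res2. None of 6 genes tested there differed among the lines, where 0.184% of all genes were called. By edgeR 4 of the 6, Igf1, Areg, Osm and Gdf15, had an unadjusted p under 0.05, as did 425 of all 5969 genes. DESeq2 called 1 of the 6, and the alternative settings, DESeq2 among them, called 4 to 93 of all genes.

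Gdf15 separated the lines in monocytes. Its level was 107 and 99.2 CPM in E0771, 132, 231 and 155 CPM in E0771-Res1 and 416, 357 and 459 CPM in E0771-Res2, without overlap of any lines. It was higher in E0771-Res2 than in E0771 by 1.99 log2 units (SE 0.27, adjusted p = 0.00987). Leaving out mouse 1 or mouse 3 gave an adjusted p of 0.117 or 0.0838 with differences of 2.07 and 1.93.

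Against E0771-Res1, 2 of 8 genes were called in monocytes, Gdf15 higher and Osm lower, where 4.1% of all genes were called. The Gdf15 difference was 1.26 (SE 0.22, adjusted p = 0.0325). With cells thinned to 3000 UMIs the adjusted p was 0.0501, and it lay between 0.0532 and 0.149 without mouse 1, 3, 6, 7, 8 or 9. In E0771-Res1 against E0771, 0 of 8 genes and 0.0211% of all genes were called in monocytes. By edgeR 3 of the 8, Igf1, Pdgfb and Gdf15, had an unadjusted p under 0.05. Adjusted over all 9459 genes tested, their p was 0.566, 0.562 and 0.552. DESeq2 called 1 of the 8, and the alternative settings, DESeq2 among them, called 0 to 95 of all genes.

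In macrophages Gdf15 was 189 and 107 CPM in E0771, 132, 290.4 and 151 CPM in E0771-Res1 and 238, 323 and 280.1 CPM in E0771-Res2. The E0771-Res2 mice were above the parental ones, and mouse 5 of E0771-Res1 lay among them. The difference from E0771 of 0.85 (SE 0.43, adjusted p = 0.453) was not called. The change was smaller in macrophages than in monocytes by 1.15 log2 units in the test of that difference (SE 0.24), with an adjusted p of 0.122 in edgeR. None of 8 genes was called in the 3 tests of this kind, where 0.0102%, 0.335% and 0.102% of 9852 genes were called for E0771-Res1 against E0771, E0771-Res2 against E0771 and E0771-Res2 against E0771-Res1. The numbers with an unadjusted p under 0.05 were 1, 4 and 2 by edgeR, against 680, 832 and 475 of all genes. DESeq2 called 1 in the comparison of E0771-Res2 with E0771, where the alternative settings, DESeq2 among them, called 0 to 133 of all genes.

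Markers of cell handling are given beside these differences. For 8 immediate-early and heat shock genes the summed monocyte level was 4054 to 4433 CPM with the parental line, 4213 to 5839 CPM with E0771-Res1 and 5297 to 7803 CPM with E0771-Res2. In macrophages it was 4032 to 4128, 4453 to 4513 and 4334 to 5044 CPM. Of the 8 genes, Atf3 was called in monocytes of E0771-Res2 against E0771 (0.45), and Jun (0.44) and Ier2 (-0.64) in macrophages, while 0 of 8 were called in E0771-Res1 against E0771 or between the resistant lines. Their part in the Gdf15, Igf1 and Osm differences was not tested.

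Pdgfa in monocytes was higher in E0771-Res2 than in E0771 by 2.08 log2 units (SE 0.49, adjusted p = 0.0169), on 13 UMIs in E0771 and 111 in E0771-Res2. Mouse 6 of E0771-Res1, at 6.86 CPM, was above mouse 8 of E0771-Res2 at 5.51 CPM. The adjusted p was 0.322 without mouse 1, 0.0971 without mouse 3, 0.0575 without mouse 7 and 0.0727 without mouse 9, and it was 0.0684 in monocytes with fewer than 3 C1qa UMIs. In macrophages the Pdgfa difference was 0.37 (SE 0.41, adjusted p = 0.756).

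Osm was lower in E0771-Res2. In macrophages, where the E0771-Res2 mice lay at 83.0 to 89.7 CPM below all others, the log2 difference from E0771 was -0.91 (SE 0.19, adjusted p = 0.0289) and that from E0771-Res1 was -0.67 (SE 0.17, adjusted p = 0.0541). Leaving out any mouse of E0771 or E0771-Res2 gave an adjusted p between 0.0884 and 0.277, and thinning to 3000 UMIs gave 0.121. In monocytes the difference from E0771-Res1 was -0.51 (SE 0.11, adjusted p = 0.00744), lost without mouse 9 at 0.0819, and that from E0771 was -0.29 (SE 0.12, adjusted p = 0.183).

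The other genes gave no call between lines. Pdgfb in macrophages was 0.59 log2 units higher in E0771-Res1 than in E0771 (95% interval 0.28 to 0.89, adjusted p = 0.0915) without overlap, and 0.37 higher in E0771-Res2. Tgfb1 in macrophages differed by 0.01 (interval -0.20 to 0.21) and -0.07 (interval -0.27 to 0.14), so its differences there were small against those of Igf1. In monocytes of E0771-Res2 the Tgfb1 difference from E0771 was -0.26 (interval -0.44 to -0.07, adjusted p = 0.128). That from E0771-Res1 was -0.22 (interval -0.38 to -0.05, adjusted p = 0.187). For Hbegf in macrophages of E0771-Res2 against E0771 the interval ran from -3.37 to 1.86 and for Areg from -2.74 to 4.12, so no difference was detectable. In monocytes Hbegf differed from E0771 by 1.15 in E0771-Res1 (interval 0.07 to 2.22, adjusted p = 0.659). In E0771-Res2 it differed by 0.92 (interval -0.15 to 1.98, adjusted p = 0.433).

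**Figure D3:**
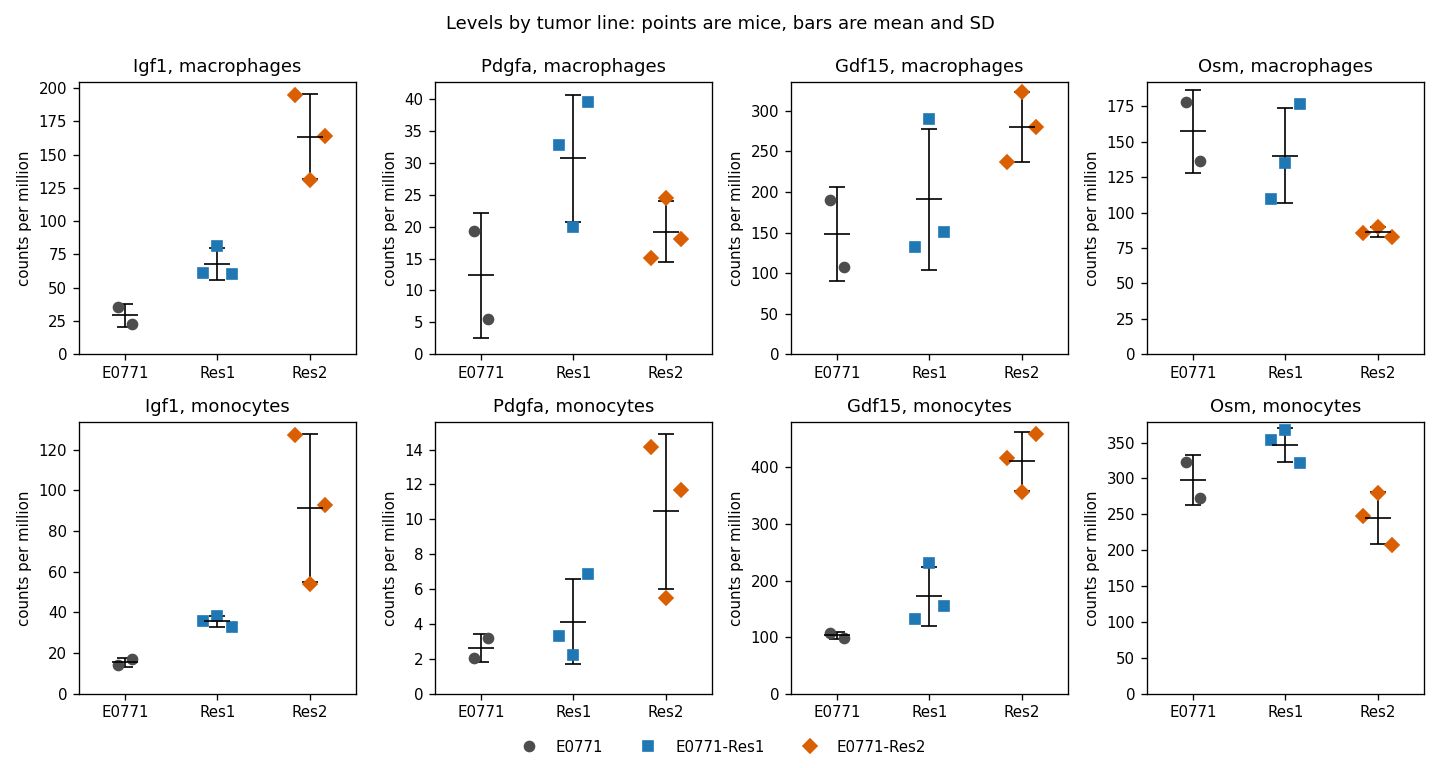
Igf1, Pdgfa, Gdf15 and Osm in CPM on the vertical axes, in macrophages (upper row) and monocytes (lower row) by tumor line. Points are mice and bars the mean and SD; Igf1 rises from 29.2 to 67.7 and 163 CPM in macrophages, and Osm in macrophages is lowest in E0771-Res2.

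Igf1 followed macrophage state. Macrophages were split by Gpnmb, a gene of lipid-laden phagocytes, into cells with 2 or more UMIs and cells with 0. Cells with Gpnmb held 125 and 63.7 CPM of Igf1 in E0771, 131, 119 and 107 CPM in E0771-Res1 and 339.8, 210.3 and 282 CPM in E0771-Res2. Cells without it held 13.9 and 11.0, then 52.9, 44.7 and 30.6, then 61.9, 68.2 and 64.8 CPM. Igf1 was higher with Gpnmb in 8 of 8 mice, by 2.02 log2 units (SE 0.15, adjusted p = 4.3e-07), as the only one of 6 genes tested, where 12.9% of all genes were called.

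Macrophages with 2 or more Gpnmb UMIs made up 14.6% and 18.3% of this class in the parental mice, 11.9%, 19.6% and 19.2% with E0771-Res1, and 43.9%, 37.8% and 40.6% with E0771-Res2. Macrophages with 0 Gpnmb UMIs were then compared between lines, an analysis added after the data were seen. Igf1 was higher in these cells in E0771-Res2 than in E0771 (log2 difference 2.30, adjusted p = 0.000314), and also in E0771-Res1 (1.78, adjusted p = 0.00696). Between the resistant lines the difference was 0.52 with an adjusted p of 0.219. The parental mice gave 150 and 72 such cells. Macrophages of E0771-Res2 were less deep (medians of 6998.5 to 8869 UMIs against 10119 to 11481), so 0 UMIs was a weaker limit on Gpnmb there. The cells of this split were not thinned, and the part of depth was not tested.

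Folr2, a gene of tissue-resident macrophages, gave a smaller contrast in the 6 mice with 10 or more cells on each side. Cells with 2 or more Folr2 UMIs held 74.4 CPM of Igf1 in mouse 1, 107 and 117 CPM in mice 4 and 5 and 218, 215 and 250.1 CPM in mice 7 to 9, against 29.7, 41.3, 52.8, 191, 121 and 137 CPM in cells with 0. Igf1 was higher by 0.88 log2 units (SE 0.13, adjusted p = 7.61e-05), Pdgfa by 1.36 (SE 0.26, adjusted p = 0.00154) and Osm gave -0.59 (SE 0.16, adjusted p = 0.0271), 3 of 6 genes where 8.13% of all were called. The Pdgfa call was lost without mouse 4 (adjusted p = 0.0709), and the Osm call without mouse 4, 5 or 8 (adjusted p between 0.0837 and 0.14) and with cells thinned to 3000 UMIs (adjusted p = 0.318). Pdgfa also gave no call with thinned cells. Without mouse as a block the adjusted p was 0.543 for Igf1 and 0.454 for Osm.

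H2-Ab1, a chain of MHC class II, divided macrophages at the median of each mouse. Cells above it held less Igf1 in 8 of 8 mice, at 8.18 to 179.9 CPM against 39.8 to 211 CPM, with a log2 difference of -0.62 (SE 0.12, adjusted p = 0.0012), which was -0.33 (adjusted p = 0.162) after thinning. Osm went the other way in 7 of 8 mice (0.55, SE 0.09, adjusted p = 3.07e-05). These were 2 of 6 genes, where 8.04% of all were called.

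Monocytes with 2 or more Il1b UMIs did not differ from those with 0 in any of the 5 genes tested by edgeR, where 4% of all genes were called, and 0 of the 5 and 988 of all 7032 genes had an unadjusted p under 0.05. DESeq2 called 0. For Osm the log2 difference was 0.18 (SE 0.09, adjusted p = 0.383). A planned split by Arg1 could not be fitted, since 0 to 7 macrophages per mouse had 2 or more Arg1 UMIs.

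**Figure D4:**
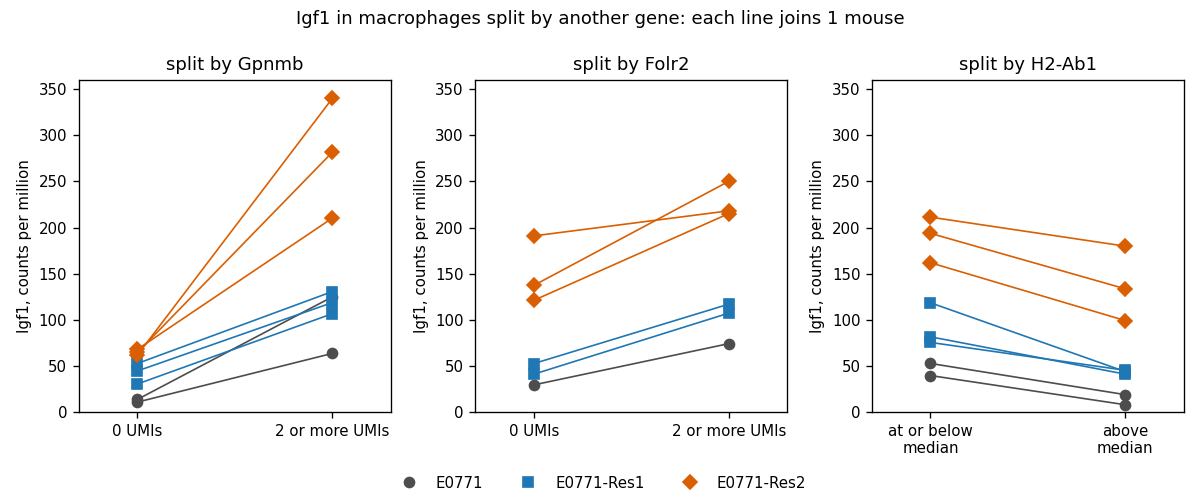
Igf1 in CPM on the vertical axis in macrophages split by Gpnmb, Folr2 and H2-Ab1, where each line joins the 2 sides of 1 mouse and colors are tumor lines. Every line rises with Gpnmb and with Folr2 and falls with H2-Ab1.

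Other genes of these pathways were taken from lists of 26 growth factors, 19 receptors, 28 genes of processing and activation, 20 response genes and 20 stress genes. In macrophages against monocytes, 4 of the 6 receptors tested were higher and none lower (median 0.50, against 0.02 over all genes). Of 11 growth factors 4 were higher and 6 lower, among them Vegfb, a vascular growth factor (1.23, SE 0.14, adjusted p = 1.31e-09), and Inhba, the activin A subunit (-1.96, SE 0.38, adjusted p = 0.000154). Of 16 processing genes 5 were higher and 3 lower. Itgb5, an integrin chain that pairs with the alpha-v chain, was higher (0.98, SE 0.11, adjusted p = 4.07e-09), and Thbs1, an activator of latent Tgfb1, was lower (-2.20, SE 0.23, adjusted p = 4.97e-08). Of 16 response genes 2 were higher and 7 lower, and of 16 stress genes 0 were higher and 7 lower. Since 51.4% of all genes were called here, the numbers called in the processing, response and stress lists were near that share.

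Between E0771-Res2 and E0771, few response genes were called, all of them lower. In monocytes 5 of 17 were lower, where 5.56% of all genes were called (median -0.17, against 0.02 over all genes), among them Cish (-1.03, SE 0.17, adjusted p = 0.00127), Bcl3 (-0.53, SE 0.15, adjusted p = 0.0448) and Socs3 (-0.44, SE 0.09, adjusted p = 0.00659). In macrophages 2 of 16 were lower, where 2.35% of all genes were called, Cish (-1.46, SE 0.30, adjusted p = 0.0128) and Socs3 (-0.63, SE 0.12, adjusted p = 0.00632). Cish and Socs3 are feedback inhibitors of JAK-STAT signaling, which receptors of the interleukin-6 family use.

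Against E0771-Res1 the same 2 genes were lower in both classes. In monocytes 4 of 17 response genes were lower, where 4.1% of all genes were called, with Socs3 at -0.69 (SE 0.08, adjusted p = 3.69e-05), Cish at -0.73 (SE 0.16, adjusted p = 0.00998) and Skil, an inhibitor of Smad signaling, at -0.44 (SE 0.12, adjusted p = 0.0356). In macrophages 2 of 16 were lower, where 3.15% of all genes were called, with Socs3 at -0.73 (SE 0.10, adjusted p = 0.00046) and Cish at -1.16 (SE 0.26, adjusted p = 0.0167). None of the 5 lists had a call between E0771-Res1 and E0771 in either class.

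Few receptors and other ligands were called between lines, and the shares of all genes called are those just given. In monocytes of E0771-Res2 against E0771, 2 of 9 receptors were higher and 1 lower, with Igf2r, which clears insulin-like growth factor 2, at 0.78 (SE 0.21, adjusted p = 0.028) and Tgfbr1 at 0.56 (SE 0.15, adjusted p = 0.0263). Of 14 growth factors Grn, the progranulin gene, was higher at 0.43 (SE 0.11, adjusted p = 0.0193) and Nrg1, a ligand of ErbB receptors, lower at -1.28 (SE 0.23, adjusted p = 0.00203). Of 17 stress genes Atf3 was higher (0.45, SE 0.12, adjusted p = 0.0236) and Cdkn1a lower (-0.66, SE 0.11, adjusted p = 0.000892). The part of stress in the Gdf15 difference was not tested. Between the resistant lines the counts were as low. In monocytes of E0771-Res2, Grn was higher (0.55, SE 0.10, adjusted p = 0.00139) and Nrg1 lower (-0.92, SE 0.22, adjusted p = 0.0162) of 14 growth factors, and Itgav, the alpha-v integrin chain, was the only call of 14 processing genes (0.59, SE 0.13, adjusted p = 0.00956). Igf2r was the only call of 9 receptors (0.71, SE 0.18, adjusted p = 0.0279), and of 17 stress genes Ddit3 was higher (0.60, SE 0.13, adjusted p = 0.0126) and Cdkn1a lower (-0.48, SE 0.10, adjusted p = 0.00518). In macrophages Grn was the only call of 12 growth factors (0.40, SE 0.08, adjusted p = 0.00976), 1 of 9 receptors was lower, 2 of 16 stress genes were higher and 0 of 14 processing genes were called. In E0771-Res2 against E0771 the 14 processing genes had no call in monocytes, nor did the growth factors, receptors, processing and stress genes in E0771-Res2 against E0771 in macrophages.

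The genes whose levels were most like a member's were listed over the 32 sums of 8 mice and 4 classes, among 4212 genes, as a description. For Igf1 these were Gpnmb (Pearson r = 0.90), Osbpl8 (0.85) and Dusp1 (0.83). For Osm they were Gda (0.94), Mgst1 (0.92) and Chil3 (0.91), for Gdf15 Nceh1 (0.87), Tgfbr1 (0.85) and Tnfsf12 (0.84), and for Pdgfb Ahsa1 (0.84), Mtln (0.83) and C1qa (0.82), the gene of the macrophage gate. Tgfb1 was most like Glrx (0.89), Pkm (0.89) and Itgb2 (0.87), and Areg most like Snrnp70 (0.88), Hnrnpa0 (0.88) and Cst7 (0.85). The nearest genes of Pdgfa, Pdgfc and Hbegf were Dmxl1 (0.72), Kcnn4 (0.76) and Usp15 (0.61). The sums share their mice, and the 4 classes set most of the spread.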

How the data were processed

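CD45+ cells of 8 mammary tumors had been sequenced as 1 pooled 3′ library with sample tags. The authors' deposited files hold UMI counts per gene and cell, made with Cell Ranger (6.1.2 per the file headers) on mm10, and the submitters' processing notes also name Seurat. Cells with 500 to 6000 genes and under 10% mitochondrial UMIs were kept, with 4993722 to 18544500 UMIs per mouse. Intervals cover 95%. Classes were gated in order: lymphoid cells (2 or more UMIs of Cd3, NK or B cell genes, C1qa under 10, Lyz2 under 20), macrophages, dendritic cells (2 or more marker UMIs) and monocytes (Ly6c2 3 or more, Lyz2 5 or more). No doublet caller was run. Counts were summed per mouse and class of 10 or more cells, and mitochondrial, ribosomal protein and Gm genes (8652 genes) were left out. Sums were fitted in edgeR 4.0.16 (TMM, filterByExpr, robust quasi-likelihood; mouse as a block between classes and states), with DESeq2 1.42.0 as an alternative, in R 4.3.3; Python 3.11.15 was used for the counting. The fit was tested on simulated data.

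The 9 genes, the gates and the lists were chosen with earlier results of these data known. List genes were named, at most 3 per list and comparison, by the largest absolute difference among calls with an average log2 CPM of 4 or more, and likeness was computed for genes with an average of 5 or more. Alternatives were another normalization, DESeq2, no filter on low counts, all genes kept, all deposited cells, cells thinned to 3000 UMIs, C1qa per 10000 UMIs, monocytes with fewer than 3 C1qa UMIs, cells with tumor or stromal UMIs left out, the replicate number as a block, and each mouse left out. Macrophages with 0 Gpnmb UMIs and cells with most of their tag UMIs from 1 tag were added after seeing the data. A marker of the macrophage check, and sums that include it, are not reported here.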

Additional observations from a re-analysis of the deposited data

Results flagged for a closer look

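Of 27 differences between classes or states within mice, 3 had 1 mouse farther from the rest than Dixon's criterion allows, a criterion that chance passes in about 1 of 20 groups. The macrophage minus monocyte log2 difference of Pdgfb was 3.17 in E0771-Res1 mouse 5 against a median of 1.76 over 8 mice, with 96.8 CPM in macrophages and 10.5 CPM in monocytes. In the same mouse Osm was 1.14 log2 units higher in macrophages with Gpnmb (247 CPM) than without (113 CPM), against a median of -0.08. Gdf15 in E0771-Res1 mouse 4 was 1.23 log2 units higher in macrophages with Folr2 (241 CPM) than without (103 CPM), against a median of -0.40 over 6 mice.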

How the results depend on the processing

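Of the called differences of single genes, 306 kept their call and 24 lost it under the alternatives, 217 kept it and 31 lost it with 1 mouse left out, and 0 changed sign. Genes that an alternative no longer tested are not in these counts. The larger changes in the numbers of the 9 genes called were as follows, and smaller ones are not listed. For E0771-Res2 against E0771-Res1 in macrophages (1 gene) the number was 2 with DESeq2 size factors, with DESeq2, with thinned cells, with C1qa per 10000 UMIs and without cells holding tumor or stromal UMIs, 3 with no filter on low counts and 0 in macrophages with 0 Gpnmb UMIs. For E0771-Res1 against E0771 in macrophages (0 genes) it was 1 with DESeq2 and with C1qa per 10000 UMIs, 3 with no filter and 2 in macrophages with 0 Gpnmb UMIs, and in monocytes (0) it was 1 with DESeq2 and 2 with no filter. With no filter it was 5 for E0771-Res2 in monocytes against E0771 (3) and against E0771-Res1 (2), 4 in dendritic cells (0), 2 for the differences between macrophages and monocytes in the change of E0771-Res2 against E0771 (0) and against E0771-Res1 (0), and 2 for Gpnmb (1). DESeq2 gave 1 in dendritic cells and 1 for the change of E0771-Res2 against E0771 between classes. Thinned cells gave 1 for E0771-Res2 against E0771 in macrophages (2), 0 for the lines in lymphoid cells (1), 3 for lymphoid against myeloid cells (5), 1 for Folr2 (3) and 1 for H2-Ab1 (2), and C1qa per 10000 UMIs gave 0 in lymphoid cells. The cause of these changes was not tested.

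The replicate numbers name different mice. Deviations from the group means correlated at -0.11 to 0.15 in 14 pairs with the same number and at -0.14 to 0.11 in 28 others. Each pair of mice was counted in macrophages and again in monocytes. The deviations of the parental mice mirror each other by construction, so these values cannot show whether the numbers pair the mice. With the replicate number as a replicate block, 1 gene was called for E0771-Res2 against E0771 in macrophages and 5 in monocytes. Without mouse as a replicate block, 1 gene was called for Folr2 and 0 for H2-Ab1. Igf1 and Hbegf then also lost their calls between macrophages and monocytes, and Igf1 lost its call between lymphoid and myeloid cells.

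Leaving out a parental mouse left 1 in that group, so numbers called between lines are not given here. Log2 differences of the called genes with each mouse left out are given instead. For E0771-Res2 against E0771 they were 2.22 to 2.82 for Igf1 and -1.05 to -0.70 for Osm in macrophages. In monocytes they were 1.91 to 2.08 for Gdf15, 2.28 to 2.86 for Igf1 and 1.74 to 2.36 for Pdgfa. Against E0771-Res1 they were 1.18 to 1.47 for Igf1 in macrophages. In monocytes they were 1.07 to 1.53 for Gdf15 and -0.62 to -0.40 for Osm against that line. Part of these calls were lost without a mouse, as given above. With a mouse left out, macrophages against monocytes had 5 to 6 of the growth factor genes called and 3716 to 4289 of all genes. Folr2 had 2 to 3 and 321 to 592. With no mouse left out, the alternatives changed the number of all genes called. For E0771-Res2 against E0771 it ranged from 69 to 514 in macrophages (214) and from 268 to 811 in monocytes (526). For E0771-Res1 against E0771 it ranged from 12 to 314 (49) and from 0 to 95 (2). For E0771-Res2 against E0771-Res1 it ranged from 97 to 546 (287) and from 236 to 624 (388). Pdgfc had too few UMIs for a test, and the wide intervals of Hbegf and Areg in macrophages go with mice in which 3 and 5 cells held most UMIs.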

Other observations

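Pdgfa in the lymphoid class lay mostly in NK cells, which held 39 of 51 UMIs. Their level was 31.3 CPM ± 20.3 (SD, n = 8), between 0 and 69.2 CPM, and it was above Foxp3+ T cells in 7 of 7 mice.

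The 3131 cells outside the gates held 1404 Igf1 UMIs. Their Igf1 level was 38.4 and 22.4 CPM in E0771, 43.8, 50.7 and 38.0 CPM in E0771-Res1 and 211, 108 and 131 CPM in E0771-Res2. Areg in these cells was 14.7 to 111 CPM, and Gdf15 was 137 to 396 CPM.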
